A study of Mus musculus with 2 samples.

Results

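Collagen genes other than the cartilage collagens were described in cells of the embryonic mouse hindlimb. The 40 genes were all those of 56982 annotated features whose symbol is Col, a number, the letter a and a number, leaving out the cartilage genes Col2a1, Col9a1, Col9a2 and Col9a3. The pattern itself matched 44 features. The choice used names only and no measured value.

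A collagen molecule is a rope of 3 protein chains, each encoded by its own gene, that is folded and modified inside the cell before it is secreted. Fibril-forming collagens such as types I, III and V give loose connective tissue its tensile strength, and type IV collagens build the sheet-like network of basement membranes under epithelia and around blood vessels. Multiplexins (types XV and XVIII) sit at basement membranes, and transmembrane collagens (types XIII, XVII, XXIII and XXV) stay anchored in the membrane of the cell that makes them. In a limb bud, loose mesenchyme fills the space between an ectoderm jacket and a net of endothelial tubes, and migrating muscle precursors and macrophages move through it.

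The data were 2 single-cell RNA libraries from FVB mouse hindlimbs at embryonic stage E11.5, with 1 library per group. The dual-enSERT-1 embryo carried ZRS-mCherry/ZRS404G>A-eGFP at H11. In the dual-enSERT-2 embryo the H11 allele began with B-ZRS-mCherry, followed by SI and then by ZRS404G>A-eGFP-B, and the labels do not spell out B and SI. Both thus held a pair of fluorescent reporters placed at the H11 locus and driven by forms of the ZRS, the distant limb enhancer of Shh, and neither was free of reporters. Hindlimbs were dissected separately for each system and dissociated with collagenase, an enzyme that digests collagen protein, before capture. Each library was 1 sample, so no test between groups was possible, and every interval below is a 95% interval that covers counting error only.

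Levels are UMIs, the counted transcript tags, of a gene as a share of all UMIs of the pooled cells of a class, on the usual CPM scale. On this scale 1319 CPM, the sum of all members in dual-enSERT-1 mesenchyme, is 0.132% of UMIs. A log2 ratio compares 2 levels after adding 1 CPM to each. A member counted as measured in a comparison of cell groups when it reached 10 CPM in either group in both libraries, and as higher or lower when the log2 ratio was at least 1 in size, in the same direction in both libraries. Positions within the mesenchyme used 0.58 in place of 1. These are rules of size, not tests. A measured member under 10 CPM in 1 group, in either library, could be called in no direction but lower in that group. Because the counts come from the 3' end of transcripts and the counting of intron reads is not given in the sources used here, levels are compared between cells for 1 gene and not between genes.

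After filters on gene number, mitochondrial share and doublets, 15877 of 20508 barcodes remained in dual-enSERT-1 and 6466 of 8885 in dual-enSERT-2, and 28 kept barcodes occurred in both. Median depth of mesenchymal cells was 14531 and 27318.5 UMIs. Classes were named from fixed markers on clusters made without any collagen gene. Mesenchyme-like cells numbered 12933 and 3798, muscle-like 548 and 77, ectoderm-like 429 and 182, endothelial-like 204 and 61, macrophage-like 57 and 56, and erythroid-like 243 and 1636, in dual-enSERT-1 and dual-enSERT-2 in that order here and throughout. Of the class markers, 8 of 8 mesenchyme, 11 of 11 ectoderm, 10 of 10 endothelial and 11 of 11 macrophage genes reached 10 CPM in their own class in both libraries, but of the 9 muscle markers 8 did so in the first library and 4 in the second. The larger muscle-like cluster of dual-enSERT-1 was led by Pax3, Actc1 and Myog, and that of dual-enSERT-2 by Pax3, Lbx1 and Met, so the muscle classes of the libraries are not alike in their leading genes. The macrophage-like cells of dual-enSERT-2 were led by Mpo and Tyrobp, and there 9 of 10 erythroid and 4 of 5 megakaryocyte markers also reached 10 CPM, against 5 and 1 in dual-enSERT-1. Erythroid markers were also high in other classes of dual-enSERT-2, with 8 of 10 at 10 CPM and a sum of 23128 CPM in endothelium, 13490 CPM in macrophages, and 7 of 10 and 7710 CPM in ectoderm. In dual-enSERT-1 the sums were 2020, 659 and 285 CPM, and the part of this erythroid RNA in the collagen levels was not tested beyond subtracting the erythroid level. The endothelial class of dual-enSERT-2 moved with the settings, from 61 cells to 102 with at most 5% mitochondrial UMIs, 109 with doublets kept and 104 with collagens in the clustering, at median depths of 16599, 17169 and 16024.5 UMIs against 29703. Under those settings the class still had log2 ratios to mesenchyme of 3.13 to 3.17 for Col4a1 and 7.79 to 7.86 for Col15a1, against 3.21 and 7.92 with 61 cells.

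Of the 40 members, 18 reached 10 CPM in at least 1 of the 5 classes other than erythroid cells in both libraries and are described with values. They comprise 7 of 10 fibril-forming genes (Col1a1, Col1a2, Col3a1, Col5a1, Col5a2, Col11a1, Col27a1), 4 of 6 basement membrane genes (Col4a1, Col4a2, Col4a5, Col4a6), both multiplexins (Col15a1, Col18a1), all 4 transmembrane genes (Col13a1, Col17a1, Col23a1, Col25a1) and Col26a1. None of the 6 beaded filament genes (type VI), the 6 fibril-associated genes, the 3 short-chain network genes (types VIII and X) or Col7a1, which encodes the anchoring fibril of skin, reached that level in both libraries. The 22 members under it were still counted.

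Collagens took up a different share of each class. The summed level of the 40 members was 1319 and 1137 CPM in mesenchyme, 575 and 607 CPM in muscle, 1066 and 972 CPM in ectoderm, 3318 and 2735 CPM in endothelium, and 99.3 and 210 CPM in macrophages. Of these 5 classes endothelium was thus the richest and macrophages the poorest in both libraries. Erythroid cells, which are not known to build collagen matrix, gave 37.5 and 51.9 CPM and serve below as the measure of background. Their levels of Col18a1 in both libraries and of Col5a1 in dual-enSERT-2 are not read in that way. The 4 cartilage collagens summed to 161 and 27.1 CPM in mesenchyme and 164 and 187 CPM in ectoderm.

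**Figure D1:**
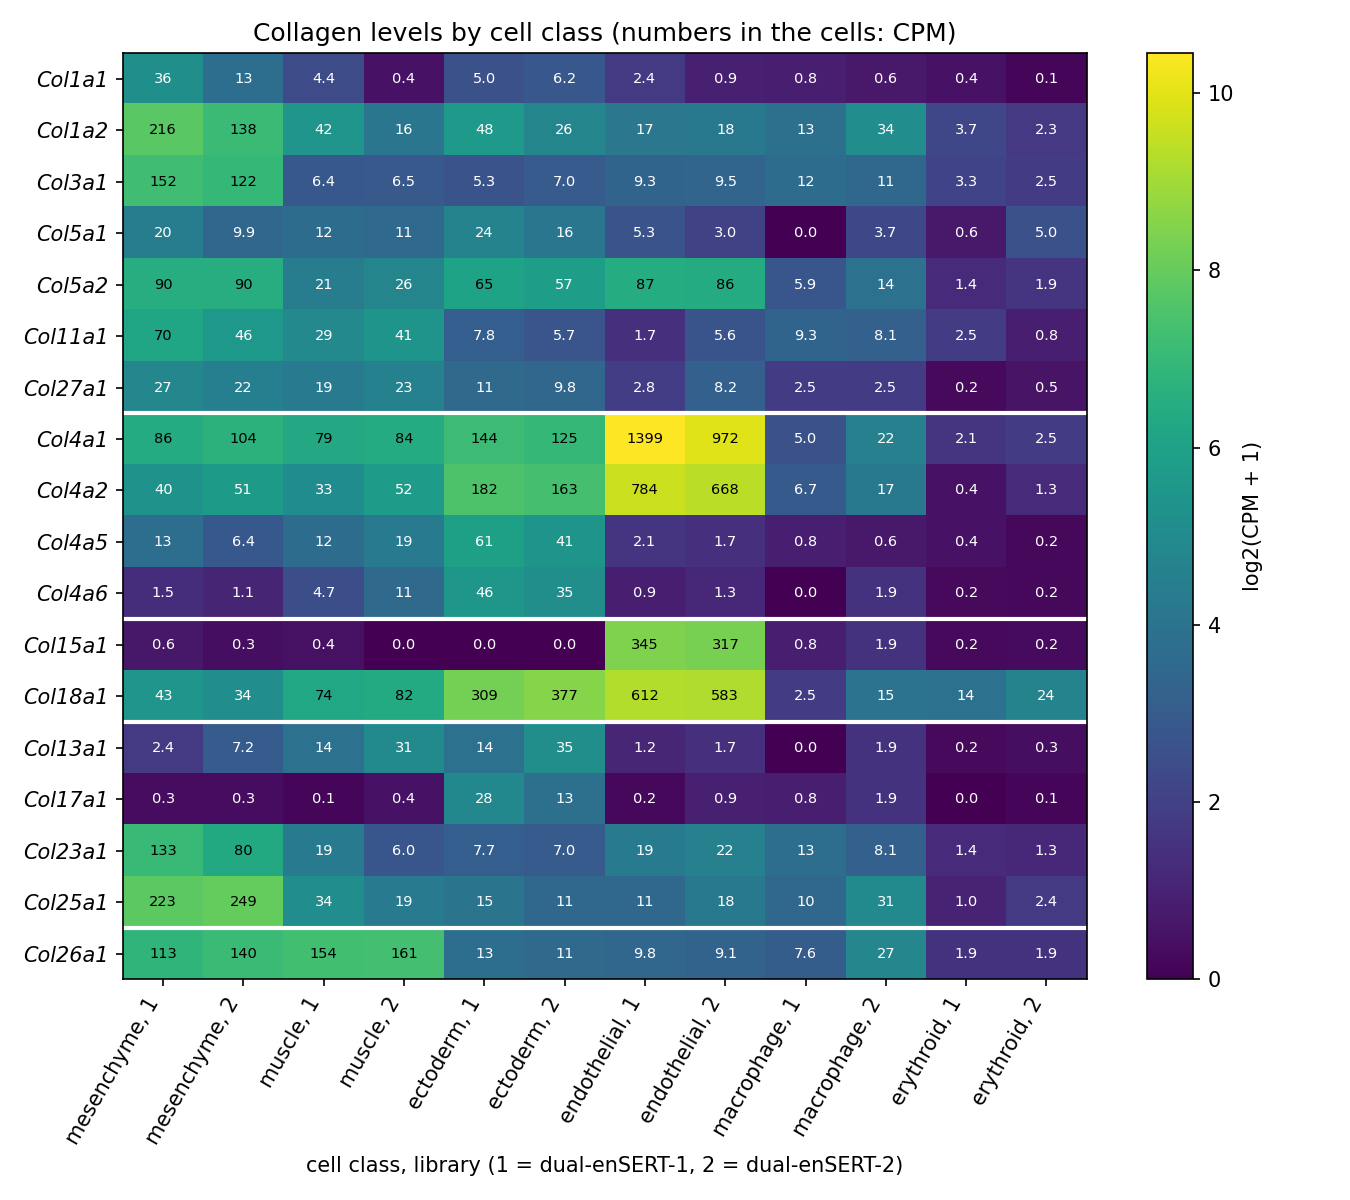
Levels of the 18 described collagen genes (rows, grouped as fibril-forming, basement membrane, multiplexin, transmembrane and other) in 6 cell classes of both libraries (columns), with colour giving log2(CPM + 1) and the number in each box the CPM. Col4a1, Col4a2, Col15a1 and Col18a1 are highest in endothelium, and Col1a1, Col1a2, Col3a1 and Col11a1 in mesenchyme.

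Upstream sequences are shown for 4 members whose levels set cell groups apart in the results that follow: Col17a1 for ectoderm, and Col3a1, Col5a1 and Col23a1 for the lower level they shared in distal mesenchyme. Each run is the 150 bases before the canonical GENCODE M39 start site in GRCm39, 5′ to 3′ on the gene's own strand. By sequence match it lies before the RefSeq start as well. The RefSeq starts of Col5a1, Col17a1 and Col23a1 lie further downstream, for Col23a1 by more than 150 bases. The bases next to those RefSeq starts are thus outside the windows. Col3a1 lies at chr1:45350548-45350697 (plus strand), Col5a1 at chr2:27776247-27776396 (plus), Col23a1 at chr11:51180416-51180565 (plus) and Col17a1 at chr19:47680534-47680683 (minus). Capitals mark every match, on either strand, to the core of the TATA box (TATAAA). They also mark the core of the GC box (GGGCGG), the CAAT box (CCAAT) and the core bound by many ETS factors (CAGGAA, which reads TTCCTG from the opposite strand).
Col3a1: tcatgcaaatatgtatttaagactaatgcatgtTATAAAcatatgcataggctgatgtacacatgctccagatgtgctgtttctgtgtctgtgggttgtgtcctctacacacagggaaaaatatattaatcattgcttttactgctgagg
Col5a1: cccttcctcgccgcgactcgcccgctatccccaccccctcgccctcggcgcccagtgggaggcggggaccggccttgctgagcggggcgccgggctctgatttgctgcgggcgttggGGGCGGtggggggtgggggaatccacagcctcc
Col23a1: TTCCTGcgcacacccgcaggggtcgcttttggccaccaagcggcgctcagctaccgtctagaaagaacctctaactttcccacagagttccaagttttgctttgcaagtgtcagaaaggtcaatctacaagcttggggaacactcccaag
Col17a1: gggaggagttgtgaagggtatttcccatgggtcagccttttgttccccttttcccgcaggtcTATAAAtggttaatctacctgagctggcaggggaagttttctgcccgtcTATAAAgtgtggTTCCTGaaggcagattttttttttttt
The TATA word occurred once in the Col3a1 window and 2 times in that of Col17a1, and 7.32% of 21618 genes hold it in the same window. The GC box core occurred once before Col5a1 and in 32.7% of genes. The ETS core occurred once each before Col17a1 and Col23a1 and in 15.8% of genes, and the CAAT box in none of the 4 windows and in 27.7% of genes. Of the 5 members that were lower distally, Col1a1 and Col1a2 are not shown. Col1a1 had no RefSeq start to compare, and the Col1a2 window overlapped annotated exons. The 3 shown differed in base composition, with 37.3% G or C before Col3a1, 76% before Col5a1 and 52.7% before Col23a1. The median over all genes was 55.3%. These matches describe letters and carry no statement on binding.

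Endothelium stood out by its basement membrane collagens. Of 13 measured members, 4 were higher than in mesenchyme, where 12% of all 9536 measured features were, and 8 were lower, where 10.9% of all features were. The 4 higher genes were Col4a1, Col4a2, Col15a1 and Col18a1, all of them genes of vessel basement membranes. Col15a1 stayed under 10 CPM in mesenchyme in both libraries, so it could be called in no direction but higher. The medians over all measured features were -0.19 and -0.17 on the log2 scale in this comparison, -0.13 and -0.03 for muscle, -0.12 and -0.07 for ectoderm and -0.19 and -0.10 for macrophages, so a log2 ratio of 0 sits slightly above the middle of all genes in them.

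Col4a1 and Col4a2 encode the chains that combine into the basic type IV network of every basement membrane. Col4a1 stood at 1399 CPM (8118 UMIs) and 972 CPM (2250 UMIs) in endothelium, and at 85.7 and 104 CPM in mesenchyme. That is 16.3-fold (95% interval 15.9 to 16.8) and 9.36-fold (8.94 to 9.79) higher. Col4a2 stood at 784 and 668 CPM in endothelium and at 39.9 and 51.4 CPM in mesenchyme, 19.7-fold and 13-fold higher. A Col4a1 UMI was found in 98.8% and 98.4% of endothelial cells after thinning each cell to 5000 UMIs, and in 1.65% and 0.98% of erythroid cells. Without thinning the endothelial shares were 92.6% and 100%, at median depths of 18126 and 29703 UMIs against 19376 and 27306.5 in erythroid cells, and thinning left out 36 and 0 shallower endothelial cells.

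Col15a1 separated endothelium from every other class. Its product links basement membranes to the surrounding matrix and shares with that of Col18a1 a tail that can be released as an anti-angiogenic fragment. Col15a1 stood at 345 CPM (2005 UMIs) and 317 CPM (734 UMIs) in endothelium, 0.593 and 0.316 CPM in mesenchyme, and 0.367 CPM (4 UMIs) and 0 UMIs in muscle. No Col15a1 UMI was seen in ectoderm in either library, which allows up to 0.470 and 0.773 CPM (3 UMIs). Against mesenchyme the ratios were 583-fold (484 to 707) and 1002-fold (711 to 1459). After thinning, 81.5% and 65.6% of endothelial cells held a Col15a1 UMI, against 0.390% and 0.186% of mesenchymal cells. Among thinned erythroid cells 0 of 243 (95% upper bound 1.51%) and 0.0613% did, and unthinned endothelial shares were 83.8% and 93.4%.

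Col18a1, the endostatin gene, was shared between endothelium and ectoderm. It stood at 612 and 583 CPM in endothelium, 309 and 377 CPM in ectoderm, 74 and 82.3 CPM in muscle, and 42.5 and 33.9 CPM in mesenchyme. The endothelial ratios to mesenchyme were 14.4-fold (13.8 to 15) and 17.2-fold (16.2 to 18.3). Col18a1 was also the member most easily seen in erythroid cells, where 6.58% and 11.9% of thinned cells held a UMI and the pooled level was 13.8 and 24.2 CPM. The thinned shares were 85.7% and 85.2% in endothelium, 66.7% and 71.7% in ectoderm and 17.9% and 16.4% in mesenchyme, and unthinned they were 89.2% and 98.4%, 67.1% and 84.1%, and 42.7% and 57.3%, beside 22.2% and 43.3% of erythroid cells. The erythroid level of Col18a1 was 32.5% and 71.4% of its mesenchymal level, against 2.41% and 2.39% for Col4a1. Whether this erythroid signal is free RNA or RNA of the erythroid cells themselves was not tested. The mesenchymal level of Col18a1 is therefore not judged against it.

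Other basement membrane genes were higher in endothelium too. Of 11 measured genes on a list of 13 basement membrane partners, 7 were higher, among them Lama4, a laminin chain of vessels, at 329 and 279 CPM against 9.84 and 11.2 CPM, and Hspg2, which encodes perlecan, at 328 and 376 CPM against 15.9 and 18.6 CPM. Nid1, Nid2, Lamc1, Lamb1 and Lamb2 completed the 7, and Lama1, Lama2 and Smoc1 were lower. Of 19 measured genes of chain folding and modification, 5 were higher (Colgalt2, Serpinh1, Crtap, Fkbp10, Plod1) and P4ha2 was lower. Serpinh1, the collagen chaperone HSP47, stood at 838 and 814 CPM against 317 and 334 CPM. Of 5 measured collagen receptor genes, Itga1, Itga2 and Itgb1, which encode the integrin chains that bind collagen, were higher, and Ddr2 and Mrc2 were lower. Itga2 stood at 94.8 and 70.9 CPM against 0.159 and 0.112 CPM. From the processing list Sparc was higher and Pcolce2, Pcolce and Adamts3 lower of 8 measured. From the breakdown list Mmp15, Timp3 and Timp1 were higher and Mmp16 and Timp2 lower of 8, and from the fibril partners Bgn was higher and Fbn2 and Fbn1 lower of 4.

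Of 6 measured fibril-forming genes 5 were lower in endothelium. Col3a1 stood at 9.3 and 9.51 CPM there against 152 and 122 CPM in mesenchyme, and Col1a2 at 16.7 and 17.7 CPM against 216 and 138 CPM. Col1a1, Col11a1, Col27a1, Col23a1, Col25a1 and Col26a1 completed the 8 lower members. Each of these 8 reached 10 CPM in mesenchyme in both libraries, so a gene that endothelium lacks could be called in no direction but lower. The sixth was Col5a2, which encodes the second chain of type V collagen, the collagen that starts and thins fibrils. Col5a2 stood at 86.8 and 85.6 CPM in endothelium and at 89.8 and 90.2 CPM in mesenchyme, a ratio of 0.967 (0.883 to 1.06) and 0.949 (0.820 to 1.09). Its partner chain Col5a1 stood at 5.34 and 3.03 CPM in endothelium and 20.2 and 9.94 CPM in mesenchyme. In erythroid cells Col5a1 stood at 0.619 and 4.98 CPM, or 3.06% and 50.1% of its mesenchymal level. Col5a2 stood at 1.61% and 2.15% of its own there. In dual-enSERT-2 the endothelial level of Col5a1 was thus no higher than its erythroid level, whose source was not tested. Mesenchyme markers in endothelium had a median of 5.03% and 4.83% of their mesenchymal level, with maxima of 16.8% and 14.0% over 7 markers, while Col5a2 stood at 96.7% and 94.9% of its own.

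**Figure D2:**
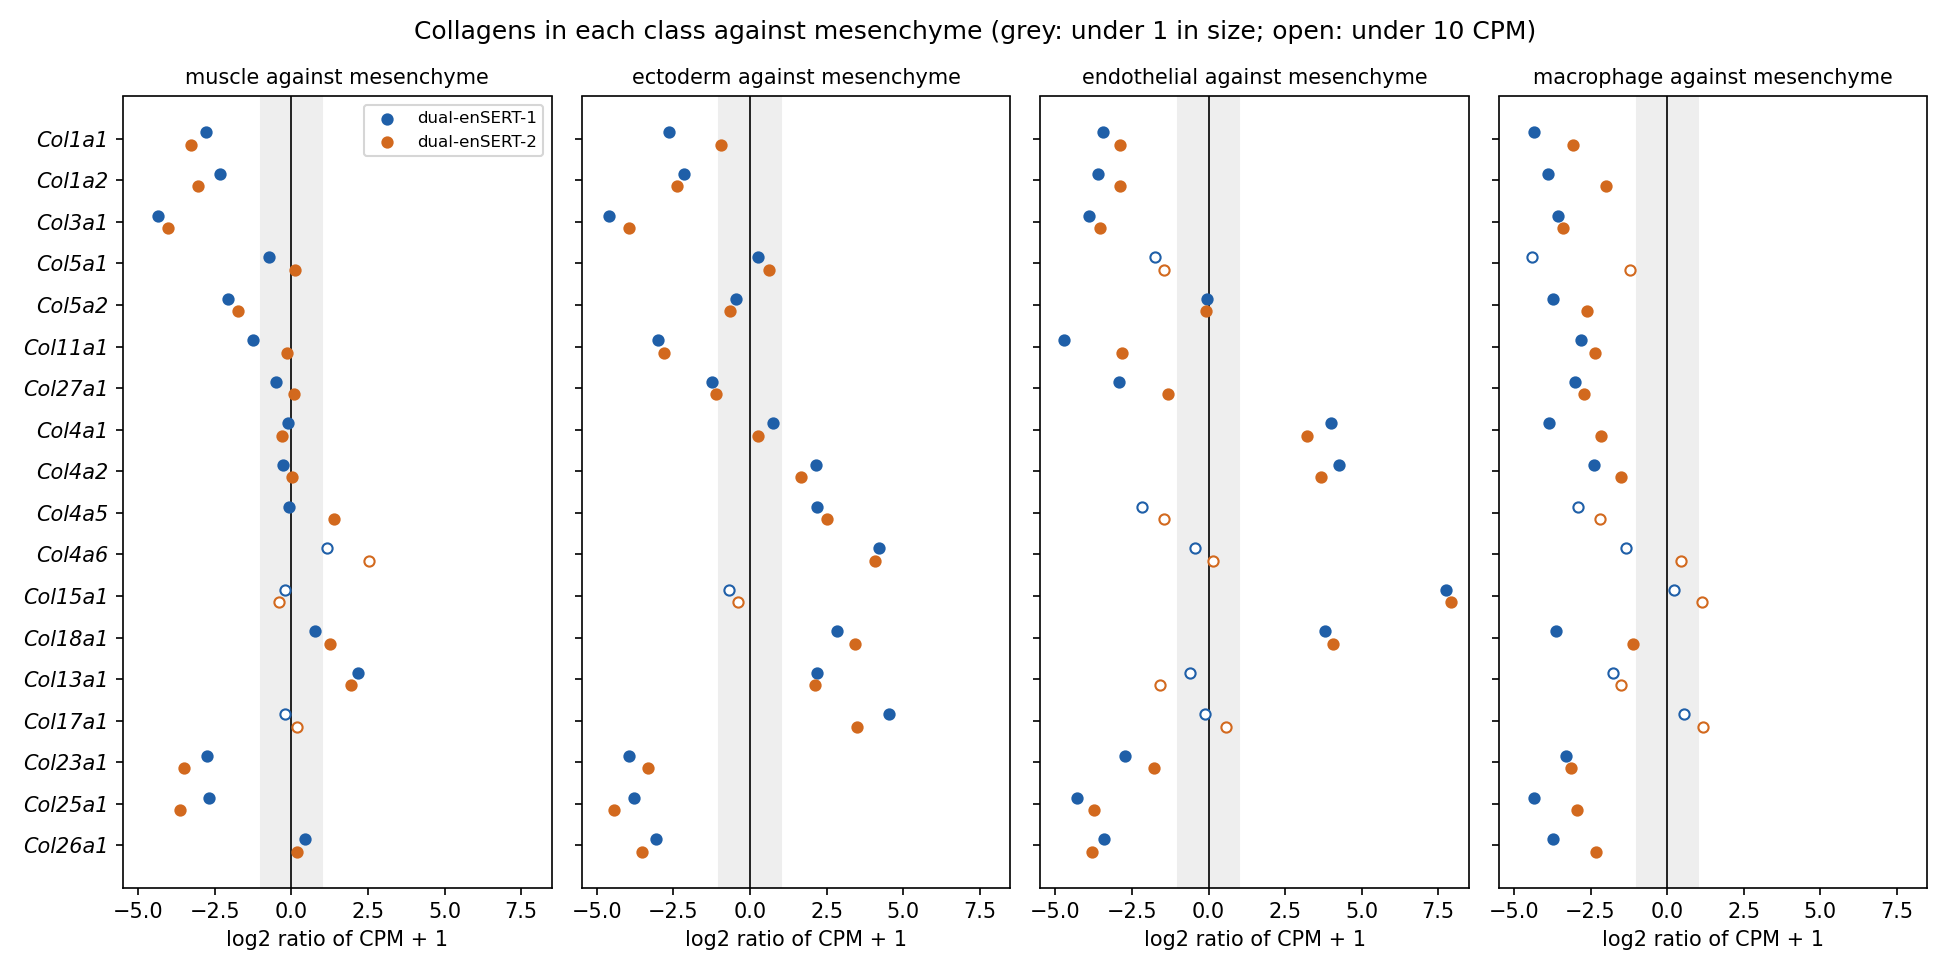
The log2 ratio of each of the 18 described members in muscle, ectoderm, endothelium and macrophages against mesenchyme (4 panels), in dual-enSERT-1 (blue) and dual-enSERT-2 (orange), after adding 1 CPM. Filled points reached 10 CPM in either group in both libraries, and the grey band holds ratios under 1 in size. Col15a1 in endothelium lies farthest to the right, and all filled points of the macrophage panel lie to the left of the band.

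Ectoderm carried a second basement membrane set. Of 17 measured members, 6 were higher than in mesenchyme, where 7.4% of 9447 features were, and 7 were lower, where 4.98% of features were. The higher genes were Col4a2, Col4a5, Col4a6, Col18a1, Col13a1 and Col17a1. Col4a6, Col13a1 and Col17a1 stayed under 10 CPM in mesenchyme in both libraries, and Col4a5 in dual-enSERT-2. They could thus be called in no direction but higher. The lower genes were Col3a1, Col25a1, Col11a1, Col27a1, Col26a1, Col1a2 and Col23a1. Each of these 7 reached 10 CPM in mesenchyme in both libraries, so a gene that ectoderm lacks could be called in no direction but lower.

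Col4a5 and Col4a6 encode the chains of the epithelial type IV network. Col4a6 stood at 45.9 CPM (293 UMIs) and 34.5 CPM (134 UMIs) in ectoderm, and at 1.55 and 1.09 CPM in mesenchyme, a ratio of 29.6 (25.1 to 34.8) and 31.7 (24.6 to 41). Col4a5 stood at 61 and 41.3 CPM in ectoderm against 12.7 and 6.4 CPM, or 4.8-fold and 6.44-fold. In endothelium Col4a6 stood at 0.861 and 1.30 CPM (5 and 3 UMIs) and Col4a5 at 2.07 and 1.73 CPM (12 and 4 UMIs), so this chain pair was near the floor in the class richest in Col4a1 and Col4a2. The genes lie head to head on chromosome X, with Col4a6 on the minus strand at 139948399 to 140257072 and Col4a5 on the plus strand at 140258354 to 140472231, and 1281 bases lie between their start sites.

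Col17a1 encodes the hemidesmosome collagen that rivets basal keratinocytes to the basement membrane. It stood at 28.2 CPM (180 UMIs) and 13.4 CPM (52 UMIs) in ectoderm and at 0.259 and 0.270 CPM in mesenchyme, so the ratios were 109 (79.5 to 151) and 49.7 (31 to 81.1). After thinning, 10.7% and 7.24% of ectodermal cells held a Col17a1 UMI, against 0 of 243 (95% upper bound 1.51%) and 0.0613% of erythroid cells. Unthinned shares were 25.6% and 22.5%, at median ectodermal depths of 9599 and 15998.5 UMIs. Thinning left out 111 of 429 and 30 of 182 ectodermal cells.

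The ectoderm of dual-enSERT-1 held 2 clusters. The larger, 241 cells led by Fgf8, Adamts18 and Trp63 with a median of 14105 UMIs, gave Col4a6 54 CPM, Col18a1 347 CPM and Col17a1 30.9 CPM. The smaller, 188 cells led by Bhlha9, Krt5 and Lgals7 with a median of 4552 UMIs, gave Col4a6 1.02 CPM, Col18a1 99.5 CPM and Col17a1 13.2 CPM. Col13a1, whose product is a transmembrane collagen of cell junctions, showed the same split with 16.8 and 1.02 CPM. These differences within the ectoderm go with the gap in depth between the clusters, whose part in them was not tested. The single ectoderm cluster of dual-enSERT-2 was led by Fgf8, Sfn and Adamts18, and there Col13a1 stood at 34.5 CPM.

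Among the other lists, ectoderm had 5 of 10 measured basement membrane partners higher. Lama5, the main laminin alpha chain of epithelia, stood at 86.7 and 101 CPM against 4.27 and 2.58 CPM in mesenchyme. Hspg2, Lamc1, Agrn and Lamb1 were the other higher genes, and Lama2, Nid1, Nid2 and Smoc1 were lower. The receptor Ddr1 stood at 49.6 and 52.9 CPM against 6.9 and 2.99 CPM, while Ddr2 and Mrc2 were lower, of 4 measured receptors. Of 19 folding genes P3h2 was higher and Plod1 and P3h3 lower. Sparc and Adamts3 were higher and Tll1 and Pcolce2 lower of 8 processing genes, Mmp16, Timp3 and Mmp2 lower of 6 breakdown genes, and Bgn higher and Fbn2 lower of 4 fibril partners.

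The ratio of Col4a1 to Col4a2 was lower in ectoderm than in mesenchyme, endothelium and muscle. The genes lie side by side on chromosome 8, Col4a1 at 11248423 to 11362826 on the minus strand and Col4a2 at 11362471 to 11499287 on the plus strand, so that the annotated genes overlap at their starts. Per UMI of Col4a2 there were 2.15 (2.09 to 2.21) and 2.02 (1.96 to 2.09) UMIs of Col4a1 in mesenchyme, 1.78 (1.72 to 1.85) and 1.46 (1.36 to 1.55) in endothelium, and 0.792 (0.726 to 0.864) and 0.763 (0.677 to 0.861) in ectoderm. In muscle the ratio was 2.39 (2.11 to 2.72) and 1.61 (1.28 to 2.04). The ectodermal intervals did not meet those of mesenchyme, endothelium or muscle in either library. Macrophages held 6 and 36 UMIs of Col4a1, with ratios of 0.75 (0.214 to 2.46) and 1.29 (0.763 to 2.19) whose intervals meet those of ectoderm. A ratio of UMIs is not a ratio of protein chains, and only its change between classes is read here.

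Other chain pairs also differed between classes. Col4a5 per Col4a6 was 8.20 (7.29 to 9.26) and 5.88 (4.83 to 7.22) in mesenchyme, 2.59 and 1.65 in muscle, and 1.33 (1.14 to 1.55) and 1.19 (0.943 to 1.51) in ectoderm. Col5a1 per Col5a2 was highest in muscle at 0.568 (0.454 to 0.708) and 0.410 (0.246 to 0.663) and lowest in endothelium at 0.0615 (0.0413 to 0.0884) and 0.0354 (0.0140 to 0.0742) of the 4 classes plotted, with ectoderm at 0.373 and 0.278 and mesenchyme at 0.225 and 0.11 between them. The endothelial ratio of dual-enSERT-2 rests on 7 UMIs of Col5a1, a level under that of erythroid cells. Col1a1 per Col1a2 was 0.169 (0.165 to 0.173) and 0.0925 (0.0875 to 0.0978) in mesenchyme, so the pair of chains of type I collagen did not keep 1 ratio between the libraries. Among type VI chains, whose levels were low, Col6a3 per Col6a1 was 1.90 and 2.49 in mesenchyme and 15 (4.82 to 75.5) and 28 (4.63 to 1145) in ectoderm, where Col6a1 had only 3 and 1 UMIs.

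**Figure D3:**
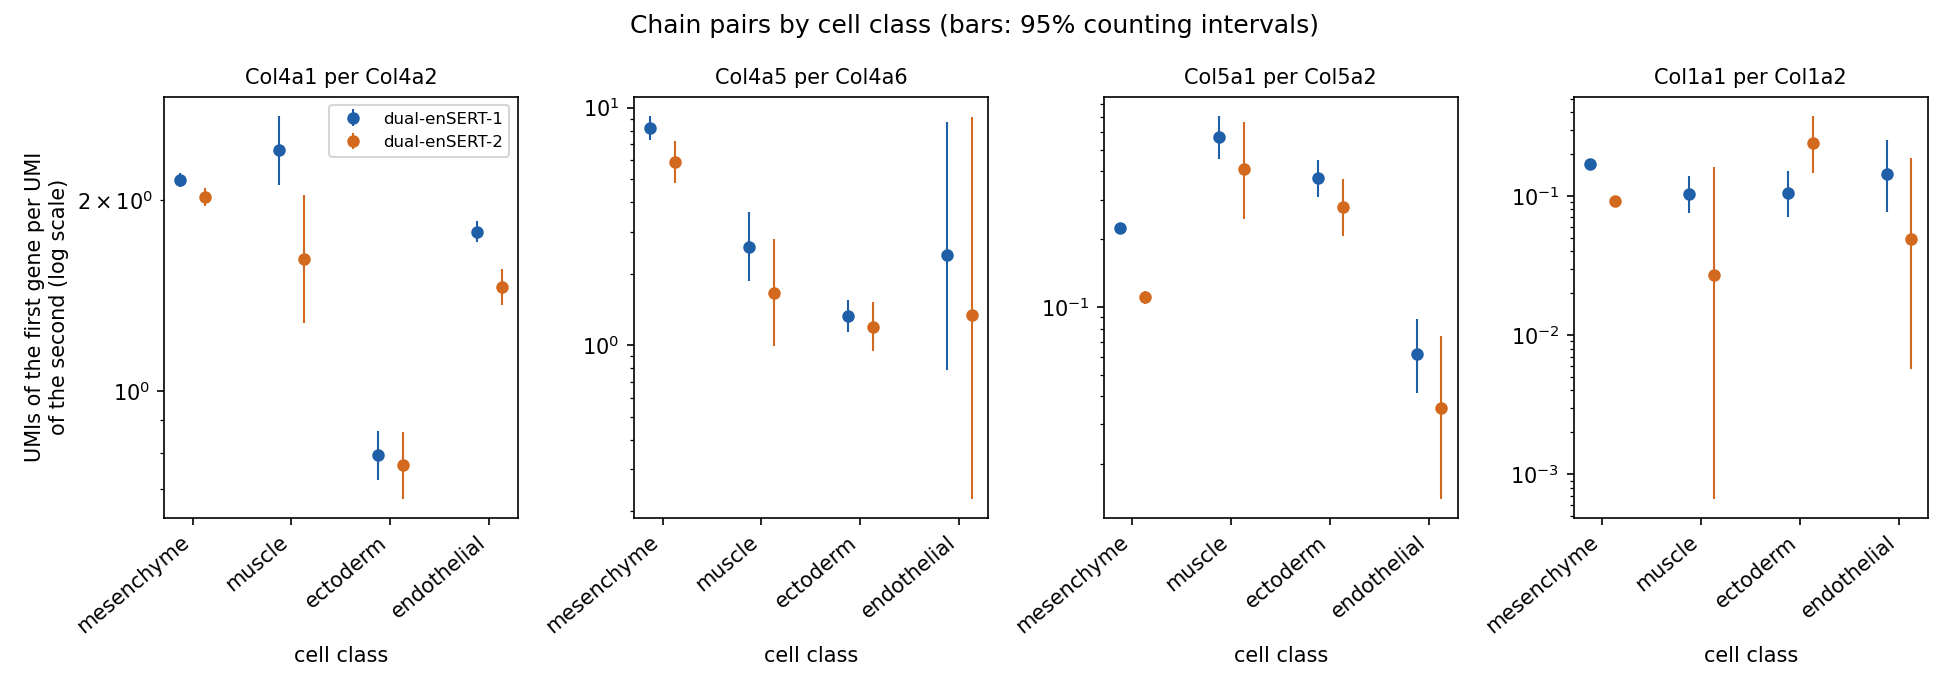
UMIs of the first chain gene per UMI of the second for 4 chain pairs in mesenchyme, muscle, ectoderm and endothelium, on log axes, in dual-enSERT-1 (blue) and dual-enSERT-2 (orange), with bars for 95% counting intervals. Col4a1 per Col4a2 lies under 1 in ectoderm, at 0.792 and 0.763, and above 1 in the other classes plotted.

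Muscle had lower levels of 4 of 7 measured fibril-forming genes and of 2 transmembrane genes. Of 15 measured members, 1 was higher, where 1.7% of 8959 features were, and 6 were lower, where 3.42% of features were. Col13a1 was the higher member. It stayed under 10 CPM in mesenchyme in both libraries, so it could be called in no direction but higher. The product of Col13a1 is known from the neuromuscular junction. Col13a1 stood at 14.1 CPM (154 UMIs) and 30.6 CPM (71 UMIs) in muscle against 2.38 and 7.18 CPM, a ratio of 5.95 (4.93 to 7.14) and 4.26 (3.3 to 5.44). After thinning, 7.17% and 16.0% of muscle cells held a Col13a1 UMI, against 1.05% and 3.41% of mesenchymal and 0.412% and 0.184% of erythroid cells, and unthinned shares in muscle were 19.3% and 44.2% at median depths of 20330 and 29057 UMIs.

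The 6 members lower in muscle were Col3a1, Col1a1, Col1a2, Col5a2, Col23a1 and Col25a1. Each reached 10 CPM in mesenchyme in both libraries, so a gene that muscle lacks could be called in no direction but lower. Col3a1 stood at 6.42 and 6.47 CPM, which is 4.23% and 5.29% of its mesenchymal level. The mesenchyme markers in muscle had a median of 7.37% and 6.46%, with maxima of 41.4% and 66.5% over 7 markers. Col25a1, whose product is a transmembrane collagen that muscle fibres need for innervation by motor axons, stood at 34 and 19 CPM in muscle and at 223 and 249 CPM in mesenchyme, a ratio of 0.153 (0.137 to 0.169) and 0.0760 (0.0552 to 0.102).

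Several collagens were about as abundant in muscle as in mesenchyme. Col26a1 stood at 154 and 161 CPM against 113 and 140 CPM, a ratio of 1.36 (1.29 to 1.43) and 1.15 (1.03 to 1.27). A Col26a1 UMI was found in 50.8% and 50.7% of thinned muscle cells and 39.2% and 46.6% of mesenchymal cells, but in 4.4% and 4.61% of ectodermal and 0.412% and 0.368% of erythroid cells. Unthinned, 75.9% and 85.7% of muscle cells held one. Col26a1, on chromosome 5 at 136770613 to 136912063, was thus abundant in mesenchyme and muscle alike and low in ectoderm and endothelium. The fibril-forming genes Col5a1 and Col27a1 were not called either, with Col5a1 at 11.8 and 10.8 CPM in muscle (58.6% and 108% of mesenchyme) and Col27a1 at 18.9 and 23.3 CPM (69.1% and 106%). Col4a1 stood at 79.1 and 84.1 CPM in muscle, with a log2 ratio of -0.11 and -0.30. Col4a5 and Col11a1 differed in 1 library only, with log2 ratios of -0.06 and 1.40 for Col4a5 and -1.24 and -0.15 for Col11a1.

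Among the lists, muscle had Lama5 higher and Nid1 lower of 10 measured basement membrane partners and Ddr2 lower of 3 receptors. Ddr2, a receptor for fibrillar collagen, stood at 3.76 and 2.59 CPM against 106 and 105 CPM. None of 18 folding genes and none of 3 fibril partners was higher or lower, Pcolce was lower of 7 processing genes, and Fap was higher and Timp3 lower of 7 breakdown genes. In dual-enSERT-1 the muscle class held 93 cells of a shallow cluster (median 3649 UMIs), where Col26a1 stood at 23.5 CPM against 159 CPM in the other 455 cells.

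Macrophages had the least collagen of these classes. All 12 measured members were lower than in mesenchyme and 0 were higher, where 13.1% and 12.5% of 9762 features were. Each of the 12 reached 10 CPM in mesenchyme in both libraries, so a gene that macrophages lack could be called in no direction but lower. Col3a1 stood at 11.8 and 10.6 CPM, and Col1a2 at 13.5 and 33.7 CPM. The mesenchyme markers themselves stood at a median of 7.74% and 17.2% of their mesenchymal level in macrophages, and in dual-enSERT-1 Col3a1 was at 7.76% and Col1a2 at 6.24% of theirs. In dual-enSERT-2 they were at 8.68% and 24.4%. After thinning, 0 of 53 (95% upper bound 6.72%) and 4% of 50 macrophages held a Col3a1 UMI, against 1.23% and 1.29% of erythroid cells, and unthinned shares were 5.26% and 12.5% in macrophages at median depths of 21078 and 25197.5 UMIs.

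Of 18 measured genes of chain folding and modification, 8 were lower in macrophages, where 13.1% of all features were, and 0 were higher, with list medians of -1.42 and -0.40 on the log2 scale. They were led by P3h3 and by Serpinh1, which stood at 63.1 and 69.2 CPM against 317 and 334 CPM. Of 9 basement membrane partners 8 were lower, of 3 receptors Ddr2 and Mrc2, of 7 processing genes Pcolce, Bmp1, Pxdn and Pcolce2, of 6 breakdown genes Mmp16, Mmp14, Mmp2 and Mmp11, and of 3 fibril partners all (Fbn2, Fbn1, Fn1).

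Among the described fibril-forming genes, mesenchyme had the highest level of Col1a1, Col1a2, Col3a1, Col11a1 and Col5a2 in both libraries. The margin of Col5a2 over endothelium was small, at 89.8 and 90.2 CPM against 86.8 and 85.6 CPM. Col5a1 was instead highest in ectoderm, at 24.4 and 16 CPM against 20.2 and 9.94 CPM, and Col27a1 stood at 22.1 CPM in mesenchyme and 23.3 CPM in muscle of dual-enSERT-2. Col1a2 and Col1a1 encode the chains of type I collagen, the main fibril of bone, tendon and dermis. Col1a2 stood at 216 CPM (43278 UMIs) and 138 CPM (14805 UMIs), and Col1a1 at 36.4 CPM (7305 UMIs) and 12.8 CPM (1370 UMIs). After thinning, 55.8% and 43.0% of mesenchymal cells held a Col1a2 UMI, against 1.65% and 1.72% of erythroid cells. A Col1a1 UMI was found in 16.5% and 6.28% of them. Unthinned, 77.6% and 78.1% of mesenchymal cells held a Col1a2 UMI and 35.6% and 26.8% a Col1a1 UMI, at median depths of 14531 and 27318.5 UMIs.

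Col3a1, the type III fibril gene of soft tissues and vessel walls, stood at 152 and 122 CPM in mesenchyme and under 12 CPM in every other named class. It was found in 42.8% and 42.3% of thinned mesenchymal cells (63.7% and 86.2% unthinned), and in 4.76% and 1.64% of endothelial cells. Col5a2, its neighbour on chromosome 1 with 16.7 kb between the genes, did not share this pattern, since Col5a2 stood at 65.4 and 57.5 CPM in ectoderm and 86.8 and 85.6 CPM in endothelium. Col11a1 and Col27a1, fibril collagens best known from cartilage, stood at 70.3 and 45.9 CPM and at 27.4 and 22.1 CPM in mesenchyme. Both were lower in ectoderm, endothelium and macrophages.

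The transmembrane genes Col23a1 and Col25a1 were mesenchymal at this stage. Col25a1 stood at 223 and 249 CPM in mesenchyme and at 34.0 CPM or less in the other named classes, and Col23a1 at 133 and 79.5 CPM and at 22.5 CPM or less in the others. Thinned cells with a UMI made up 40.1% and 52.7% of mesenchyme for Col25a1 and 35.2% and 24.9% for Col23a1, against 0.412% and 1.78%, and 1.23% and 1.16%, of erythroid cells. Unthinned, mesenchymal shares were 58.0% and 83.2% for Col25a1 and 56.4% and 55.7% for Col23a1. Both genes are long: Col25a1 spans 468 kb on chromosome 3 and Col23a1 294 kb on chromosome 11, against 16.8 kb for Col1a1 and 45.1 kb for Col3a1. Whether intron reads were counted is not given, and its part in these levels was not tested.

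Levels within the mesenchyme ranged widely for some members and hardly at all for others. The mesenchyme of dual-enSERT-1 fell into 17 clusters, and that of dual-enSERT-2 into 8. One dual-enSERT-2 cluster of 108 cells stood apart, with a median of 10048.5 UMIs and with Rmst, mt-Rnr2 and mt-Rnr1 as leading genes. It held 305 CPM of Col4a1 and 965 CPM of Col25a1, above every other mesenchyme cluster of its library, and is left out of the ranges that follow. Col4a1 ranged from 60.1 to 100 CPM over the clusters of dual-enSERT-1 and from 92.8 to 113 CPM in dual-enSERT-2, and Col4a2 from 27.3 to 47.9 and from 43.8 to 57.4 CPM, so the type IV pair varied by 1.76-fold or less in both libraries.

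Several fibril-forming and transmembrane genes varied more, but not all. Col5a2 varied by 2.04-fold and 1.5-fold and Col27a1 by 3.34-fold and 1.44-fold, so in dual-enSERT-2 both fibril genes lay near the type IV pair. Col25a1 varied by 23.7-fold and 3.19-fold. Col23a1 ranged from 14.7 to 390 CPM in dual-enSERT-1 and from 15.3 to 220 CPM in dual-enSERT-2, a 26.4-fold and 14.4-fold range. Its peak was in the cluster led by Calb2, Zfp804a and Agtr2 in dual-enSERT-1 and in that led by Ebf2, Nrk and Meis2 in dual-enSERT-2. Col1a2 ranged from 52.4 to 460 CPM, with its peak in the cluster led by Pappa, Kctd8 and Alcam, and from 14.7 to 278 CPM, with its peak in the cluster led by Kctd8, Alx4 and Ptprt. In both libraries the Col1a2 peak thus fell on a cluster with Kctd8 among its leading genes. Col3a1 ranged from 22.9 to 387 CPM and from 56 to 204 CPM, and in both libraries its peak cluster had Ebf2 among its 3 leading genes.

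Some members had their peak in 1 cluster of dual-enSERT-1. Col11a1 and Col27a1 reached 176 and 58.7 CPM in the cluster of 979 cells that had Cnmd and Matn4 among its leading genes, after the member Col8a1. Cnmd and Matn4 are genes of young cartilage. The same cluster held 61.3% of all mesenchymal UMIs of Col8a1, a short-chain network collagen, at 89.5 CPM. Col1a1, Col5a1 and Col12a1 peaked together in the cluster led by Nalf1, Pcsk2 and Lum, at 102, 56 and 70.5 CPM, while medians over the clusters were 39.6, 20.2 and 3.08 CPM. Lum encodes lumican, a proteoglycan that coats collagen fibrils.

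**Figure D4:**
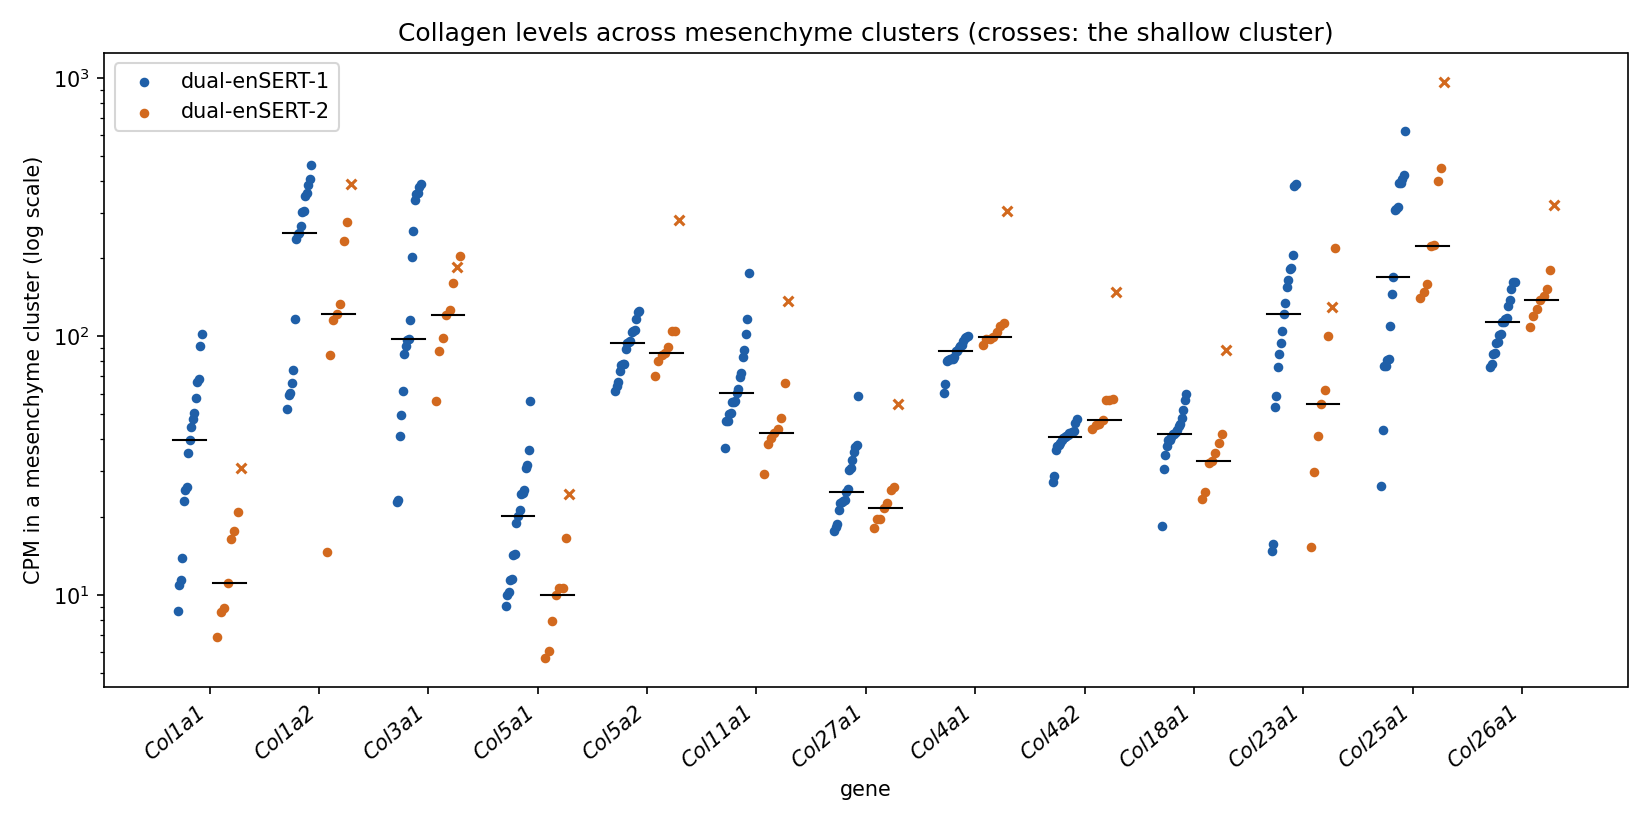
Levels (CPM, log axis) of 13 members in each mesenchyme cluster, 17 clusters of dual-enSERT-1 (blue) and 8 of dual-enSERT-2 (orange), with a black bar at the median over clusters without the shallow one (cross). Col4a1, Col4a2 and Col26a1 lie in narrow bands, and Col3a1, Col23a1 and Col25a1 are spread 16.9-fold, 26.4-fold and 23.7-fold in dual-enSERT-1.

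Position along the limb was read from Hox and Meis genes. Distal cells held a UMI of Hoxa13 or Hoxd13 after thinning (4140 and 582 cells), and proximal cells one of Meis1 or Meis2 and neither of those (3327 and 1468 cells). Of 13 measured members, 5 were lower distally, where 2.78% of 8880 features were, and 0 were higher, where 1.82% of features were. The 5 were Col1a1, Col1a2, Col3a1, Col5a1 and Col23a1, so 4 of 7 measured fibril-forming genes and 1 of 2 measured transmembrane genes.

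Col3a1 showed the widest gap of these 5 in dual-enSERT-1. It stood at 53 CPM in distal and 305 CPM in proximal cells of dual-enSERT-1, and at 79.1 and 170 CPM in dual-enSERT-2, with log2 ratios of -2.50 and -1.10. Col1a2 stood at 92.3 against 310 CPM and at 68.7 against 142 CPM (-1.73 and -1.04), and Col1a1 at 15.2 against 59.7 CPM and at 6.92 against 16.5 CPM (-1.91 and -1.14). Col5a1 and Col23a1 gave -1.22 and -0.87, and -1.08 and -1.16. In dual-enSERT-1 the gap was wider than in dual-enSERT-2 for 4 of the 5, Col23a1 being the exception, and the difference between libraries was not tested.

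Type IV collagens did not follow the axis. Col4a1 stood at 86.1 and 90 CPM distally and proximally in dual-enSERT-1 and at 111 and 99.6 CPM in dual-enSERT-2, and the log2 ratios of Col4a2 were 0.07 and 0.39. Col25a1 was not alike in the libraries, with 108 against 391 CPM (log2 ratio -1.84) in dual-enSERT-1 and 218 against 209 CPM (0.06) in dual-enSERT-2. Col13a1, under the 10 CPM rule in dual-enSERT-1, leaned distal in both libraries, at 4.15 against 0.749 CPM and 10.9 against 3.71 CPM.

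Posterior cells were those with an excess of Hand2, Hoxd11, Hoxd12 and Tbx2 over Pax9, Alx1 and Alx4 (8786 and 2440 cells), and anterior cells the reverse (479 and 150 cells). Of 12 measured members, 1 was higher posteriorly, where 1.14% of 8857 features were, and 2 were lower, where 1.31% of features were. Col23a1, higher posteriorly, stood at 149 against 47.3 CPM and at 87.9 against 29.2 CPM, a ratio of 3.14 (2.83 to 3.5) and 3 (2.5 to 3.64). Col25a1, its transmembrane relative, was lower posteriorly, at 152 against 549 CPM and 208 against 406 CPM. Col1a2 was lower as well, at 162 against 421 CPM and 97.5 against 272 CPM, with log2 ratios of -1.38 and -1.47, and those of Col25a1 were -1.85 and -0.96.

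The related genes Col23a1 and Col25a1 thus had opposite signs along this axis in both libraries. Within cells without a distal UMI the log2 ratios were 1.73 and 1.68 for Col23a1, -1.39 and -0.94 for Col25a1 and -0.88 and -1.33 for Col1a2. Within distal cells they were 2.20 and 0.94, -2.55 and -1.37, and -2.03 and -1.81, but only 52 and 6 anterior cells were distal. Col1a1, the partner chain of Col1a2, gave -0.30 and -1.07 and was not called, and Col3a1 gave -0.60 and -0.27.

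**Figure D5:**
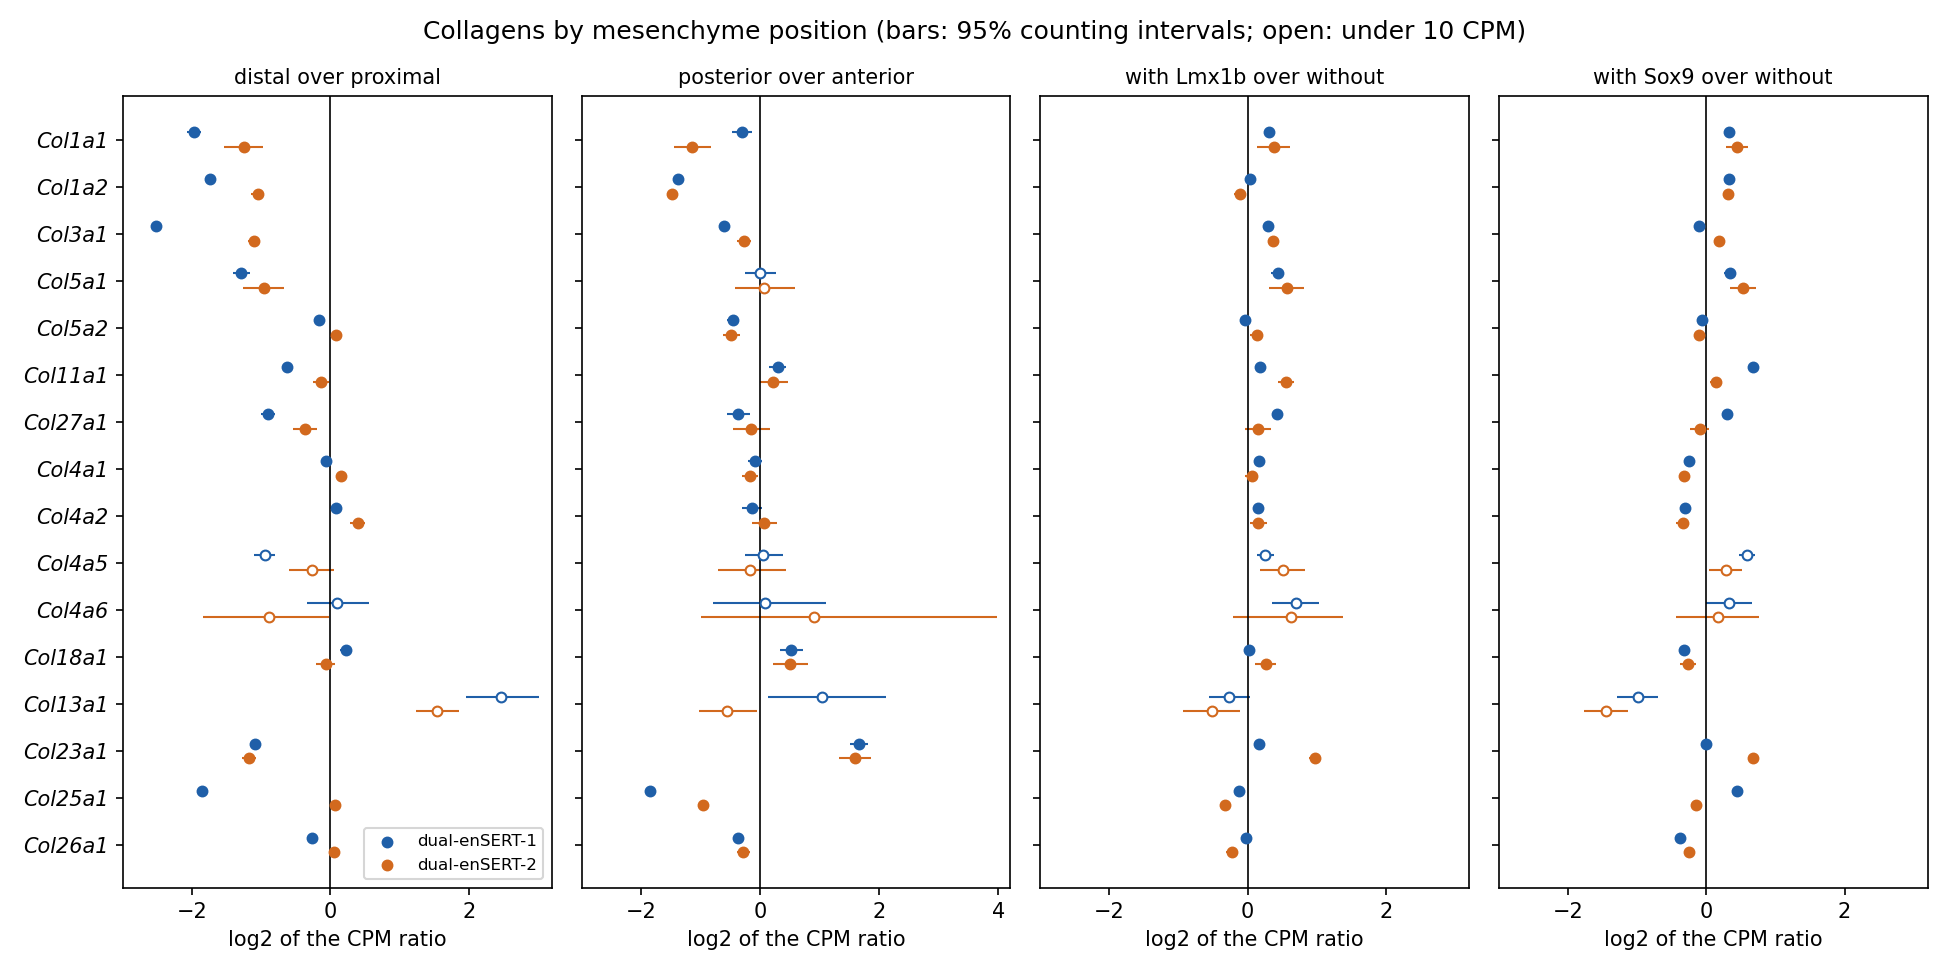
The log2 ratio of CPM of 16 members between mesenchyme positions (distal over proximal, posterior over anterior, with over without an Lmx1b UMI, with over without a Sox9 UMI), in dual-enSERT-1 (blue) and dual-enSERT-2 (orange), with 95% counting intervals. Open points did not reach 10 CPM in both libraries. Col23a1 lies near -1.1 in the first panel and near 1.6 in the second, and no filled point of the Lmx1b and Sox9 panels passes the rule in both libraries.

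Dorsal cells, those with a UMI of Lmx1b (3999 and 403 cells), showed no member past the rule. Of 13 measured members 0 were higher and 0 lower, where 0.339% and 0.0565% of 8853 features were. Col23a1 passed 0.58 in dual-enSERT-2 only, with log2 ratios of 0.16 and 0.96 from 143 against 128 CPM and 142 against 72.5 CPM. The 7 measured fibril-forming genes had medians of 0.30 and 0.35.

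Cells with a UMI of Sox9, which marks prechondrogenic condensations, likewise had 0 of 13 measured members higher and 0 lower, where 0.647% and 0.579% of 8806 features were (5960 and 1021 cells). The cartilage collagen Col2a1 itself was higher in them, at 170 against 35.1 CPM and 24.9 against 8.31 CPM. Col11a1, whose chain joins that of Col2a1 in cartilage fibrils, stood at 89.2 against 55.7 CPM (log2 ratio 0.67) and at 49.2 against 44.7 CPM (0.14). Col1a2 stood at 244 against 194 CPM and 161 against 129 CPM, a log2 ratio of 0.33 and 0.31, so the type I gene was not lower in Sox9 cells at this stage.

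Some genes on the lists of other collagen pathway genes were called along these axes. Of all measured features, 1.82% were higher and 2.78% lower distally, and 1.14% and 1.31% posteriorly. In Sox9 cells 0.647% were higher and 0.579% lower. Distally, Lama1 was higher and Lama2 and Smoc1 were lower of 10 basement membrane partners. Tll1 was lower of 6 processing genes, Timp3 higher and Mmp11 lower of 6 breakdown genes, and Fbn1 lower of 3 fibril partners. Posteriorly, Smoc1 and Lama1 were higher and Lama2 lower of 9 partners, Tll1 lower of 6, Mmp16 lower of 6 and Bgn lower of 4. In Sox9 cells Tll1 was higher and Lama1 lower, and in dorsal cells no list gave a call. Lama1, the laminin chain of early embryonic basement membranes, stood at 28 against 8.37 CPM and 33.8 against 13.1 CPM in distal and proximal cells. None of 18 folding genes and none of 3 receptors was called distally or posteriorly.

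Members differed between the libraries in every class compared except endothelium. In each direction with a call, the share of members was above that of all features. Outside macrophages each such share rested on 1 or 2 members. A member differed between libraries when it reached 10 CPM in either and the log2 ratio of dual-enSERT-2 to dual-enSERT-1 was at least 1 in size. A member under 10 CPM in 1 library could be called in no direction but higher in the other. That held for Col12a1 in mesenchyme, Col19a1 in ectoderm, and Col4a6 and Col23a1 in muscle. Genotype, embryo, depth and library preparation cannot be told apart here. In mesenchyme 0 of 15 measured members were higher, where 0.536% of 9320 features were, and 2 were lower, where 2.41% of features were. They were Col12a1, which encodes a fibril-associated collagen of tendon and perichondrium, and Col1a1. Col12a1 stood at 12 CPM (2415 UMIs) in dual-enSERT-1 and 0.735 CPM (79 UMIs) in dual-enSERT-2, a log2 ratio of -2.91. Col1a1 stood at 36.4 and 12.8 CPM, with a log2 ratio of -1.44.

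The cartilage collagens moved the same way between the libraries. Col2a1 stood at 93.9 and 12.9 CPM, Col9a1 at 45.3 and 12.6 CPM, Col9a2 at 10.1 and 0.363 CPM, and Col9a3 at 11.7 and 1.31 CPM. Col8a1, under the 10 CPM rule, stood at 7.51 CPM (1508 UMIs) and 0.0186 CPM (2 UMIs). Col8a1 in dual-enSERT-1 lay mostly in the cluster with Cnmd and Matn4 among its leading genes, and no dual-enSERT-2 cluster had Cnmd or Matn4 among its 10 leading genes. Of the other lists, Itga1 was higher of 4 receptors, Loxl1 and Sparc were lower of 9 processing genes, Lum was lower of 5 fibril partners, and none of 20 folding, 6 breakdown or 10 basement membrane partner genes was called.

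In endothelium 0 of 8 measured members differed, where 0.914% of 8976 features were higher and 0.958% lower. Col15a1 gave 345 and 317 CPM, Col18a1 612 and 583 CPM and Col5a2 86.8 and 85.6 CPM, with ratios of 0.918 (0.843 to 1), 0.954 (0.895 to 1.02) and 0.986 (0.832 to 1.16). Col4a1 had the ratio farthest from 1 of the 4 vessel genes, 0.695 (0.663 to 0.729). No gene of the 6 lists was called in endothelium.

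In ectoderm 3 of 14 measured members differed. Col13a1 was higher in dual-enSERT-2, where 1.44% of 9592 features were, and Col17a1 and Col19a1 were lower, where 1.72% of features were. Col19a1, a fibril-associated collagen of embryonic basement membrane zones, stood at 49.5 CPM (316 UMIs) and 7.99 CPM (31 UMIs), and in dual-enSERT-1 at 58.1 CPM in the Fgf8 cluster and 2.03 CPM in the Bhlha9 cluster. In every other named class it stood at 1.19 CPM or less. Of the lists, Smoc1 was higher and Smoc2, Adgrg6 and Bgn were lower.

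In muscle 4 of 14 measured members differed. Col4a6 (4.68 and 11.2 CPM) and Col13a1 (14.1 and 30.6 CPM) were higher in dual-enSERT-2, where 2.04% of 9122 features were. Col1a2 (42.5 and 15.9 CPM) and Col23a1 (18.6 and 6.03 CPM) were lower, where 3.85% of features were. No more than 14 UMIs of Col23a1 and 26 of Col4a6 lie behind the dual-enSERT-2 values. Myog and Actc1 lead the muscle cells of dual-enSERT-1 and not those of dual-enSERT-2, so the makeup of the class moved with the library and its part in these 4 differences was not tested. Of the lists, Mmp2, Timp1 and Smoc2 were higher and Tll1, Pcolce, Ddr1, Timp3, Lama2 and Lamb1 lower.

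In macrophages 7 of 9 measured members were higher in dual-enSERT-2, where 7.85% of 9531 features were, and 0 were lower, where 2.43% were. They were Col1a2, Col5a2, Col25a1, Col26a1, Col18a1, Col4a1 and Col4a2, with log2 ratios from 1.10 (Col5a2, 22 and 7 UMIs) to 2.18 (Col18a1, 24 and 3 UMIs). Of these, Col5a2, Col26a1, Col18a1, Col4a1 and Col4a2 were under 10 CPM in dual-enSERT-1, so they could be called in no direction but higher. The mesenchyme markers moved with them, with 7 of 8 at 10 CPM or more and a sum of 367 CPM in dual-enSERT-2, against 6 of 8 and 199 CPM in dual-enSERT-1. The count depended on the settings, with 2 members differing when doublets were kept and 4 at a minimum of 20 CPM. With doublets kept the log2 ratios of Col1a2, Col25a1 and Col5a2 turned to -0.83, -0.92 and -0.74, and with at most 5% mitochondrial UMIs those of Col1a2 and Col5a2 turned to -0.18 and -0.14. Of the lists, Ddr2, Mrc2, Pxdn, Timp3, Mmp2, Mmp16, Lama2, Smoc1, Lamb1 and Fbn2 were higher and Crtap was lower.

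The 22 members that did not reach 10 CPM in both libraries were mostly detected at low levels or in few cells. In dual-enSERT-1 alone, Col19a1 passed it in ectoderm (49.5 CPM) and Col12a1 in mesenchyme (12 CPM). Type VI collagen, later a major matrix of muscle and tendon, was sparse, with Col6a1 at 3.05 and 1.5 CPM, Col6a2 at 4.86 and 2.69 CPM and Col6a3 at 5.78 and 3.73 CPM in mesenchyme. Col7a1 stood at 7.51 CPM (48 UMIs) and 1.29 CPM (5 UMIs) in ectoderm, and Col6a3 at 7.04 and 7.22 CPM there. Col22a1, known from muscle-tendon junctions, stood at 3.73 and 3.87 CPM in mesenchyme. The scarcest were Col5a3 with 10, Col6a4 with 17, Col6a5 with 19, and Col10a1 and Col4a3 with 38 UMIs each over all barcodes of both libraries.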

How the data were processed

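The deposited files hold raw UMI counts per gene and barcode, 1 filtered matrix per library. Cell Ranger appears as version 7.0.1 per the file headers but as 3.1.0, beside Seurat 4 and mm39, per the submitters' processing notes, so which version made the deposited counts is not settled. Settings for introns and strand: not given in the sources used here. The libraries were 10x 3' libraries, per the labels' protocols.

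Barcodes under 1000 genes or over 10% mitochondrial UMIs were dropped, and doublets were removed with Scrublet in scanpy 1.11.5 (expected share 8%), which marked 10.8% and 3.25% of the passing barcodes. Each library was clustered alone (2000 variable genes, 30 components, 15 neighbours, Leiden resolution 1, leidenalg 0.10.2), leaving out collagens, the reporters and Shh. For classes other than mesenchyme, a cluster was named when at least 3 fixed markers met the rule. Each had to exceed its level in the remaining cells 2-fold and be found in 10% of the cluster's cells. Mesenchyme was then named by the same rule, but against the pooled clusters already named as other classes. Clusters much shallower than their library, with no own marker among their 10 leading genes, were set back to unnamed. So were clusters where another class had more markers among those genes. Unnamed cells (1463 and 656) entered no comparison. Counts were pooled per class and scaled to CPM. Intervals are exact Poisson (levels) or Clopper-Pearson (ratios and shares), and cover counting error only. Shares and positions used cells thinned to 5000 UMIs, which left out 115 and 42 mesenchymal, 74 and 2 muscle and 111 and 30 ectodermal cells.

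With 1 library per group no test was run. Members past the size rule were named in each comparison, members at 10 CPM or more in some class of both libraries were described, and from the other lists the called genes were named, up to 6 per direction. Basement membrane genes in endothelium and macrophage library calls beyond 6, and members under 10 CPM, were named after their values were seen. The members, markers and lists were chosen with earlier results of these data known. Gene positions come from GENCODE M39 (GRCm39), which matched 56236 of 56982 features and all 40 members. The ratios and size-rule calls were tested on simulated counts that held counting error only. Those counts had no variation between cells or libraries, so the simulation cannot speak to it. The alternatives covered pseudocount, level minimum, scaling, mean over cells, filters, doublets, resolution, collagens in clustering, subtraction of the erythroid level, mesenchyme without Sox9 or Col2a1 cells, thinning and positions. Leaving out shallow clusters was added after seeing the data. A further anterior marker is not reported here.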

Additional observations from a re-analysis of the deposited data

Results flagged for a closer look

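Col1a2, a chain gene of type I collagen, had library ratios of opposite sign in muscle and macrophages. In muscle the log2 ratio of dual-enSERT-2 to dual-enSERT-1 was -1.36, from 42.5 CPM (463 UMIs) to 15.9 CPM (37 UMIs). In macrophages it was 1.26, from 13.5 CPM (16 UMIs) to 33.7 CPM (54 UMIs). The macrophage direction is not stable: the ratio turned to -0.18 with at most 5% mitochondrial UMIs and to -0.83 with doublets kept, the same direction as in muscle. With 1 library per group the difference between the classes was not tested.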

How the results depend on the processing

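The counts that follow show dependence on settings and have no share of all features beside them. They are thus not read as results about collagens. Where the level minimum was dropped, any feature with a UMI in the compared cells counted as measured. Members differing between libraries numbered 3 in ectoderm, and 5 with at least 2000 genes, 6 with at most 5% mitochondrial UMIs and 7 with no level minimum. In endothelium there were 0, and 1 with doublets kept and 4 with no minimum. In macrophages there were 7, and 4 at 20 CPM, 2 with doublets kept and 12 with no minimum. In mesenchyme there were 2, and 1 at 20 CPM, 4 after subtracting the erythroid level, 1 without Sox9 or Col2a1 cells and 4 with no minimum. In muscle there were 4, and 2 at 20 CPM, 7 with doublets kept and 2 with a pseudocount of 5 CPM. Members higher in muscle than mesenchyme numbered 1, and 0 at 20 CPM, 2 after the subtraction and 2 with no minimum. With no minimum the lower members became 14 in endothelium, 20 in macrophages, 4 posteriorly and 1 in Sox9 cells, and 1 member was higher distally. At 20 CPM 3 members were lower distally. Posteriorly, 2 were higher after the subtraction or at an index of 2, and 5 were lower within distal cells. Of 1700 recomputed log2 ratios for 120 called values, 1673 kept direction and size rule, 22 fell below the rule and 5 reversed. Those 5 were macrophage library ratios: Col1a2 at -0.18 and Col5a2 at -0.14 with at most 5% mitochondrial UMIs, and Col1a2 at -0.83, Col25a1 at -0.92 and Col5a2 at -0.74 with doublets kept. Their cause was not tested. Levels of muscle and macrophages in dual-enSERT-2 rest on 77 and 56 cells, which limits their precision. No paired analysis was possible because each group holds 1 library.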
